A study of Mus musculus with 24 samples.

Results

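The 10 genes described here are the histone deacetylases *Hdac1*, *Hdac2*, *Hdac3*, *Hdac4*, *Hdac5*, *Hdac6*, *Hdac7*, *Hdac8*, *Hdac9* and *Hdac11*. They were taken by gene symbol, with every non-control probe that carries one of these names, which gave 14 probes of 41174 and 10 gene names of 27398. RNA of L4 and L5 dorsal root ganglia (DRGs) was measured on Agilent whole mouse genome arrays in adult male mice of strain C57BL/6J, either *Nfil3* knockout (KO) or wildtype (WT). The sciatic nerve was cut and its ends were joined, and ganglia were taken at day 2 or day 5 post-lesion, with ganglia of the non-injured side as control. This gives 6 groups of 4 samples: WT control, WT day 2, WT day 5, KO control, KO day 2 and KO day 5. The KO mice lack *Nfil3*, which encodes a transcriptional repressor, in all tissues, since the conditional allele was recombined in the germ line. No group had sham surgery, and which control ganglia came from the animals of which lesion group is not given by the labels.

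Histone deacetylases remove acetyl groups from lysines of histones and of many other proteins, and on chromatin this goes together with lower transcription. Class I enzymes (*Hdac1*, *Hdac2*, *Hdac3*, *Hdac8*) are mostly nuclear, and the first 3 of them are the catalytic subunits of large corepressor complexes. Class IIa enzymes (*Hdac4*, *Hdac5*, *Hdac7*, *Hdac9*) bind MEF2 factors and leave the nucleus once calcium-dependent kinases have phosphorylated them. In injured sensory neurons the HDAC5 protein is known for this export and for deacetylating tubulin in the axon. *Hdac6*, of class IIb, encodes the main cytoplasmic tubulin deacetylase, and *Hdac11* is the single member of class IV. The arrays measure RNA, so neither the location nor the activity of these enzymes was seen.

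Values are log2 intensities after background correction and quantile normalization, differences are on the log2 scale, and adjusted p values are from limma with the Benjamini-Hochberg method over all probes, with 0.05 as threshold. A gene counts as called if any of its probes passed. Levels were compared between groups for the same probe and never between probes. Of the 14 probes, 11 were marked well above background in all 24 samples. The exceptions were *Hdac2* probe A_52_P46504, in 0 of 24, and *Hdac7* probe A_51_P403234 and *Hdac8* probe A_51_P481191, each missed in 1 WT control sample. Across the 13 probes other than A_52_P46504, the SD within a group of 4 ran from 0.043 to 0.570 with a median of 0.200. The tests below used instead a spread for each probe that limma estimated over all 6 groups. The array annotation places the *Hdac1* probe on chromosome 17, whereas RefSeq places *Hdac1* on chromosome 4, so which transcript that probe measures is uncertain.

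*Nfil3*, the deleted gene, had a mean level of 8.65 ± 0.25 in WT control, 10.5 ± 0.18 in WT day 2 and 10.9 ± 0.19 in WT day 5 (SD, n = 4), and 4.67 ± 2.03, 4.67 ± 1.39 and 4.42 ± 1.53 in the matching KO groups. The library taken as KO control replicate 4 stands apart, since its *Nfil3* level was 7.59 against 2.94, 3.80 and 4.37 in the other KO controls. Its title gives day 0 while its day field gives 5. All control titles give day 0, whereas the methods describe control ganglia as those of the non-injured side. This library was used as KO control. *Atf3*, a transcription factor gene induced by nerve injury, was at 7.25 to 9.98 in all 8 control samples and at 12.9 to 14.1 in all 16 lesioned ones, so this library had a control level of *Atf3*. By sample, 54.5% to 72.3% of probes were well above background. Saturation was not seen in any spot.

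These are the first 30 bases of the 60-base probes of the members that passed the threshold after the lesion, shown because every level of these genes rests on them.
*Hdac11* A_51_P213334: agaccttgagtgagctacaatctccattgg
*Hdac4* A_51_P417839: acttgggcagagttgctgaatcaagttgac
*Hdac5* A_51_P278893: ccctttgggcttcatcattgtgattttgtt
*Hdac6* A_51_P449361: ttgaataccctttgccaggtgcttatttaa
*Hdac7* A_52_P435016: caacggtgccaaaccttcatctcccttcaa
*Hdac7* A_51_P403234: agaggaagaacccatgaacctctagggttt
The array annotation uses mm9, where it places the probes at chr6:91124085-91124144 on the plus strand, and at chr1:93829554-93829613, chr11:102057068-102057122, chrX:7507434-7507493, chr15:97623442-97623501 and chr15:97624093-97624152 on the minus strand, in the order of the lines above. The interval given for the *Hdac5* probe is shorter than the probe. Exon and UTR annotation of mm9 was not used here.

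After the lesion *Hdac11*, *Hdac4* and *Hdac5* fell, *Hdac6* and *Hdac7* rose, and *Hdac1*, *Hdac2*, *Hdac3*, *Hdac8* and *Hdac9* did not pass the threshold. In the F test for any lesion change over both genotypes 4 of the 10 genes were called (*Hdac11*, *Hdac4*, *Hdac6* and *Hdac7*), while 29.3% of all genes were called, and 45.9% of genes with a probe well above background in every sample. At day 2, averaged over WT and KO, 1 member was higher and 2 were lower, against 11.0% (higher) and 14.4% (lower) of all genes. At day 5, 2 members were higher and 3 were lower, against 11.2% and 14.7% of all genes, and 16.7% and 24.4% of those with a probe well above background in every sample. The share of members called is therefore near the background, and the results below are about single genes and not about the family. The median difference over the members was 0.04 at day 2 and -0.01 at day 5, and over all genes it was -0.02 and -0.03. In bulk ganglia, fewer cells of a type and less RNA per cell cannot be told apart, and markers of macrophages rose and those of sensory neurons mostly fell in the same samples, with the values given at the end.

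**Figure D1:**
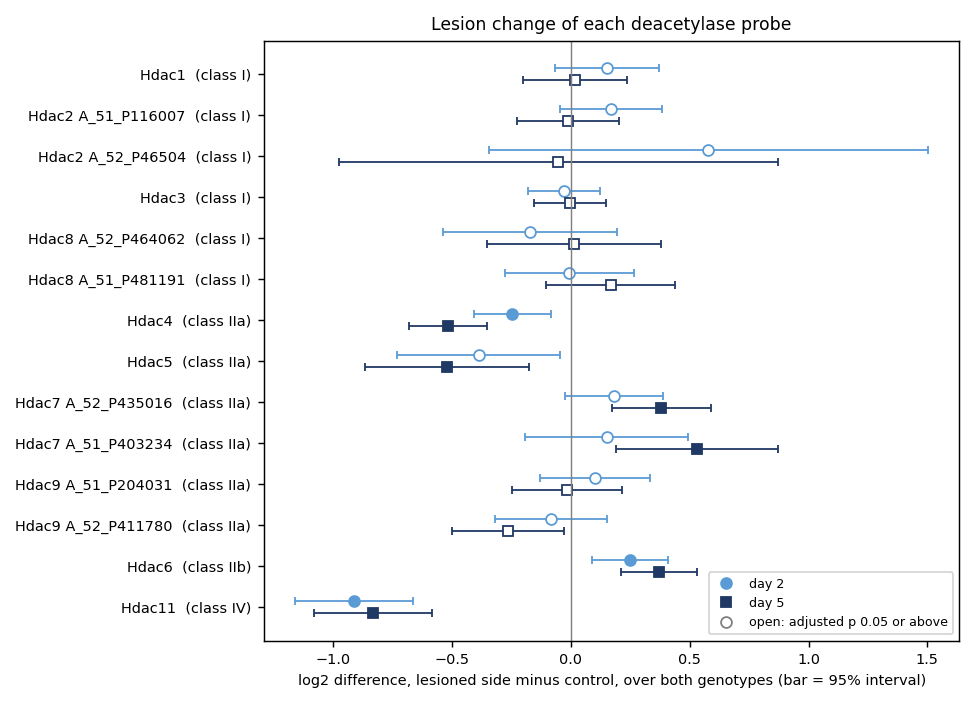
Difference between lesioned and control ganglia for each of the 14 probes on the log2 scale, averaged over WT and KO, with 95% intervals; circles are day 2, squares are day 5, and filled symbols passed the threshold. *Hdac11* lies farthest from 0 on the lower side at both times, and the widest intervals belong to *Hdac2* probe A_52_P46504, which was never well above background.

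*Hdac11* had the largest lesion change of the family. Its control levels were 8.16, 8.30, 8.28 and 7.96 in WT and 7.94, 8.29, 8.23 and 8.34 in KO. At day 2 they were 7.42, 6.79, 7.18 and 7.61 in WT and 7.18, 7.59, 7.59 and 6.84 in KO. At day 5 they were 7.32, 7.32, 7.48 and 7.18 in WT and 7.42, 7.30, 7.49 and 7.33 in KO. Every lesioned sample was thus below every control sample at both times, a separation in either direction that 7.42% of all genes showed at day 2 and 13.0% at day 5. The level fell by 0.91 at day 2 (95% interval -1.16 to -0.67, adjusted p = 1.0e-05), which is 1.88-fold lower, and by 0.83 at day 5 (-1.08 to -0.59, adjusted p = 2.3e-05), which is 1.78-fold lower. Samples of day 2 were more spread than those of day 5, with an SD of 0.35 in WT and 0.36 in KO against 0.12 and 0.09. The difference between the times was 0.08 (-0.17 to 0.33).

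The fall of *Hdac11* was called in each genotype. It was 0.93 lower at day 2 in WT and 0.90 lower in KO, and 0.85 and 0.82 lower at day 5, with adjusted p values of 9.4e-04, 0.0012, 0.0015 and 0.0024. KO minus WT of these changes was 0.03 at both times, with intervals of -0.46 to 0.52 and -0.46 to 0.53. On the 3 slides the fall lay between 0.52 and 1.16 at day 2 and between 0.68 and 1.01 at day 5. Without KO control replicate 4 the differences were -0.89 and -0.81.

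**Figure D2:**
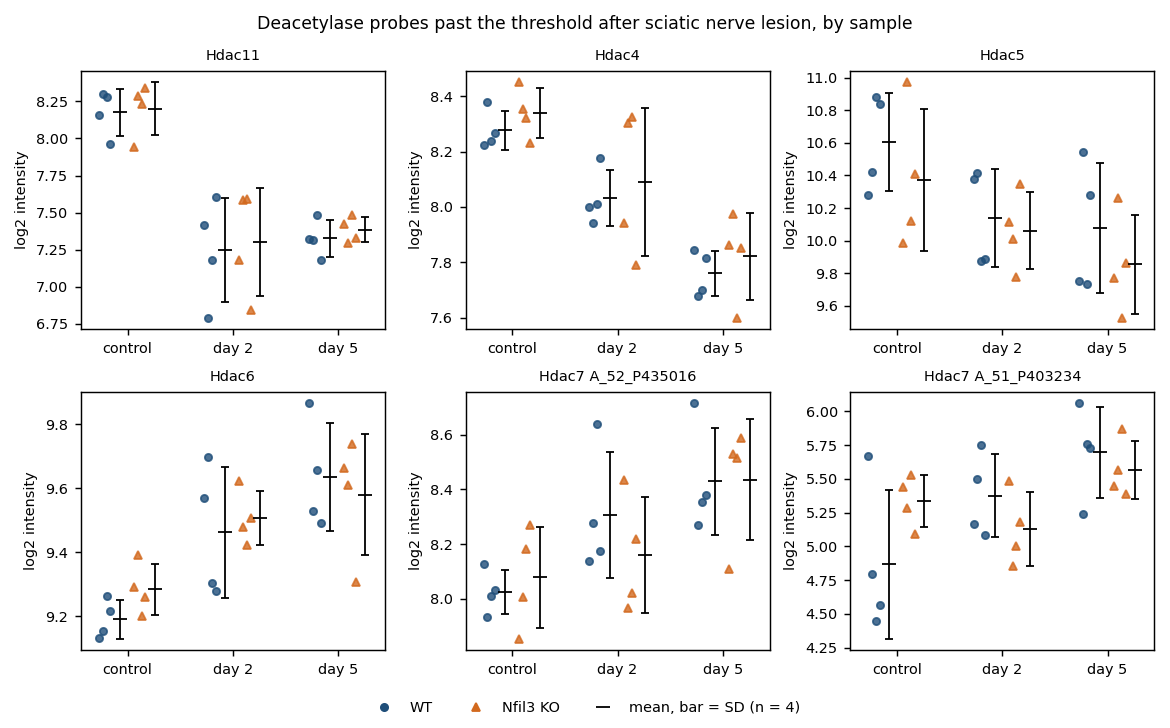
Log2 intensity of the 6 probes past the threshold in each of the 24 samples, with WT as circles, KO as triangles, and the mean and SD of each group of 4 beside them. The *Hdac11* samples of both lesion times lie below all controls, the *Hdac4* samples do so at day 5, and the groups of the other 4 panels overlap.

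*Hdac4*, which encodes a class IIa repressor of MEF2 target genes, fell at both times. Control levels were 8.22, 8.38, 8.24 and 8.27 in WT and 8.45, 8.36, 8.32 and 8.23 in KO. At day 2 they were 8.0, 7.94, 8.01 and 8.18 in WT and 7.94, 8.30, 8.33 and 7.79 in KO. At day 5 they were 7.84, 7.68, 7.70 and 7.82 in WT and 7.86, 7.97, 7.60 and 7.85 in KO. Day 5 lay below all controls in both genotypes, whereas at day 2 the WT samples lay below all controls and 2 KO samples did not. At day 5, 13.0% of all genes showed such a separation in either direction, and no share was computed for WT day 2 alone. The difference was -0.25 at day 2 (-0.41 to -0.08, adjusted p = 0.027) and -0.52 at day 5 (-0.68 to -0.35, adjusted p = 4.5e-05), which is 1.43-fold lower.

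From day 2 to day 5 *Hdac4* was lower by a further 0.27 (-0.43 to -0.11), which did not pass the threshold (limma adjusted p = 0.066). No member was called between the times, against 4.02% of all genes, and 2 of the 14 probes had an unadjusted p under 0.05, the other being *Hdac7* A_51_P403234. In both WT and KO the day 5 difference of *Hdac4* was -0.52, with adjusted p values of 0.0029 and 0.0033. On the slides it lay between -0.58 and -0.39 at day 5 and between -0.38 and -0.01 at day 2, the latter value being from a slide with 1 sample of day 2. The day 2 call was lost without any 1 of 5 samples (WT control replicate 2, WT day 2 replicate 2, KO control replicate 1 or KO day 2 replicate 1 or 4), with differences of -0.20 to -0.23 and an adjusted p up to 0.061, and held without KO control replicate 4 (-0.26).

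*Hdac5*, also of class IIa, fell at day 5, with a wider spread between samples. Control levels were 10.28, 10.42, 10.88 and 10.84 in WT and 9.98, 10.97, 10.12 and 10.41 in KO. At day 2 they were 10.38, 10.42, 9.87 and 9.89 in WT and 10.11, 10.01, 9.77 and 10.35 in KO. At day 5 they were 9.75, 10.54, 9.73 and 10.28 in WT and 9.77, 10.26, 9.53 and 9.86 in KO. The groups overlapped at both times, but on each of the 3 slides every lesioned sample lay below every control. The share of all genes that separate this way within slides was not computed. Controls were at 9.98 to 10.28 on slide 1, 10.41 to 10.42 on slide 2 and 10.84 to 10.97 on slide 3. The slides, in this order, held 3, 2 and 3 controls, 1, 4 and 3 samples of day 2, and 4, 2 and 2 of day 5. The difference was -0.52 at day 5 (-0.87 to -0.18, adjusted p = 0.026) and -0.39 at day 2 (-0.73 to -0.04, adjusted p = 0.11), and the F test over both times missed the threshold (adjusted p = 0.053). That F test passed under 7 of 14 processing alternatives, among them slide as a block (adjusted p = 4.3e-05) and processed signals (0.0026), and without any 1 of 5 samples (WT control replicate 1, WT day 5 replicate 2, KO control replicate 1, KO day 2 replicate 4, KO day 5 replicate 2).

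Within WT the day 5 difference of *Hdac5* was -0.53 and within KO -0.52, and neither passed on its own (adjusted p = 0.17 and 0.19). The day 5 call over both genotypes was lost without any 1 of 6 samples (WT control replicate 3 or 4, WT day 5 replicate 1 or 3, KO control replicate 2, KO day 5 replicate 3), with differences of -0.42 to -0.48 and an adjusted p up to 0.062. It held without KO control replicate 4 (-0.52, adjusted p = 0.043). Within the slides it lay between -0.49 and -0.36.

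*Hdac6* rose. Control levels were 9.13, 9.15, 9.26 and 9.21 in WT and 9.29, 9.39, 9.20 and 9.26 in KO. At day 2 they were 9.57, 9.70, 9.30 and 9.28 in WT and 9.62, 9.48, 9.42 and 9.51 in KO. At day 5 they were 9.86, 9.53, 9.66 and 9.49 in WT and 9.66, 9.61, 9.74 and 9.31 in KO. At day 2 the WT samples replicate 3 and 4, and at day 5 the KO sample replicate 4, were within the range of the controls, and all other lesioned samples were above it. The difference was 0.25 at day 2 (0.09 to 0.41, adjusted p = 0.026) and 0.37 at day 5 (0.21 to 0.53, adjusted p = 0.0012), which is 1.29-fold higher.

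In WT *Hdac6* was 0.44 higher at day 5 (adjusted p = 0.0087), and in KO it was 0.29 higher, which did not pass (adjusted p = 0.092) but did without background correction, with normexp, with processed signals, with slide as a block and without KO day 5 replicate 4. KO minus WT of these changes was -0.15 (-0.47 to 0.17), so the genotypes were not shown to differ. Within the slides the day 5 difference lay between 0.22 and 0.52. The day 2 call was lost without WT day 2 replicate 1 or 2, KO control replicate 3 or KO day 2 replicate 1 (0.21 to 0.23, adjusted p up to 0.063), and held without KO control replicate 4 (0.24, adjusted p = 0.043).

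*Hdac7*, the class IIa member best known from endothelial cells and thymocytes, was higher at day 5 by both of its probes. With the brighter probe, A_52_P435016, control levels were 8.13, 7.93, 8.01 and 8.03 in WT and 7.85, 8.01, 8.18 and 8.27 in KO. At day 2 they were 8.14, 8.28, 8.64 and 8.18 in WT and 8.44, 7.96, 8.02 and 8.22 in KO. At day 5 they were 8.71, 8.27, 8.35 and 8.38 in WT and 8.11, 8.53, 8.51 and 8.59 in KO. Of the day 5 samples only WT replicate 2, at the top of the control range, and KO replicate 1 were not clearly above the controls. The difference was 0.38 at day 5 (0.17 to 0.59, adjusted p = 0.0075), which is 1.30-fold higher, and 0.18 at day 2 (adjusted p = 0.22).

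The dimmer *Hdac7* probe, A_51_P403234, gave 0.53 at day 5 (0.19 to 0.87, adjusted p = 0.023). Its control levels were 5.67, 4.80, 4.44 and 4.57 in WT and 5.44, 5.28, 5.53 and 5.09 in KO. Its day 5 levels were 6.06, 5.24, 5.76 and 5.73 in WT and 5.45, 5.57, 5.87 and 5.39 in KO. The WT controls were therefore the lowest group apart from replicate 1, and the change was 0.83 in WT (adjusted p = 0.021) and 0.23 in KO (adjusted p = 0.64). The test of that difference gave -0.59 at day 5 (-1.28 to 0.09) and -0.71 at day 2 (-1.39 to -0.03, unadjusted p = 0.043, adjusted p = 1.00), and the brighter probe gave -0.05 and -0.20, so the probes disagree on the genotypes. For A_51_P403234 the size of the day 5 lesion difference over both genotypes depends on the background correction, being 0.19 with none and 0.20 with normexp. The call of that lesion difference was lost without WT control replicate 3, WT day 5 replicate 1 or KO day 5 replicate 3 (0.46 to 0.48). Without KO control replicate 4 it was 0.49 (adjusted p = 0.049).

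With all 24 samples, the class I genes and *Hdac9* showed no change past the threshold. *Hdac3*, the catalytic subunit of the NCoR/SMRT complexes, had the narrowest intervals, with -0.03 at day 2 (-0.18 to 0.12) and -0.01 at day 5 (-0.16 to 0.15). Its levels ran from 8.94 to 9.32 in controls, 8.96 to 9.25 at day 2 and 8.98 to 9.33 at day 5, and the ranges overlap almost fully. The *Hdac1* probe gave 0.15 at day 2 (-0.07 to 0.37) and 0.02 at day 5 (-0.20 to 0.24). *Hdac2*, whose product pairs with HDAC1 in the same complexes, gave 0.17 (-0.05 to 0.38) and -0.01 (-0.23 to 0.20) with probe A_51_P116007. Without WT day 2 replicate 3, *Hdac2* was called in the lesion F test (limma adjusted p = 0.026). For its other probe, A_52_P46504, levels lay between 0.56 and 4.11, not well above background in any sample, and no fold is given.

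For *Hdac8*, which deacetylates the cohesin subunit SMC3, the probes gave 0.01 (-0.35 to 0.38) and 0.17 (-0.11 to 0.44) at day 5. *Hdac9* was measured by probes that do not lie in the same place of the gene, A_51_P204031 with -0.02 (-0.25 to 0.22) and A_52_P411780 with -0.26 (-0.50 to -0.03, adjusted p = 0.11) at day 5. With the latter probe the levels were 6.55 to 7.01 with a median of 6.67 in controls and 6.18 to 6.64 with a median of 6.47 at day 5. These ranges overlap by a small margin. The day 5 interval of A_52_P411780 leaves out 0, without adjustment over probes. For all of these genes, an interval that includes 0 or a difference not past the threshold does not show that the level was the same.

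**Figure D3:**
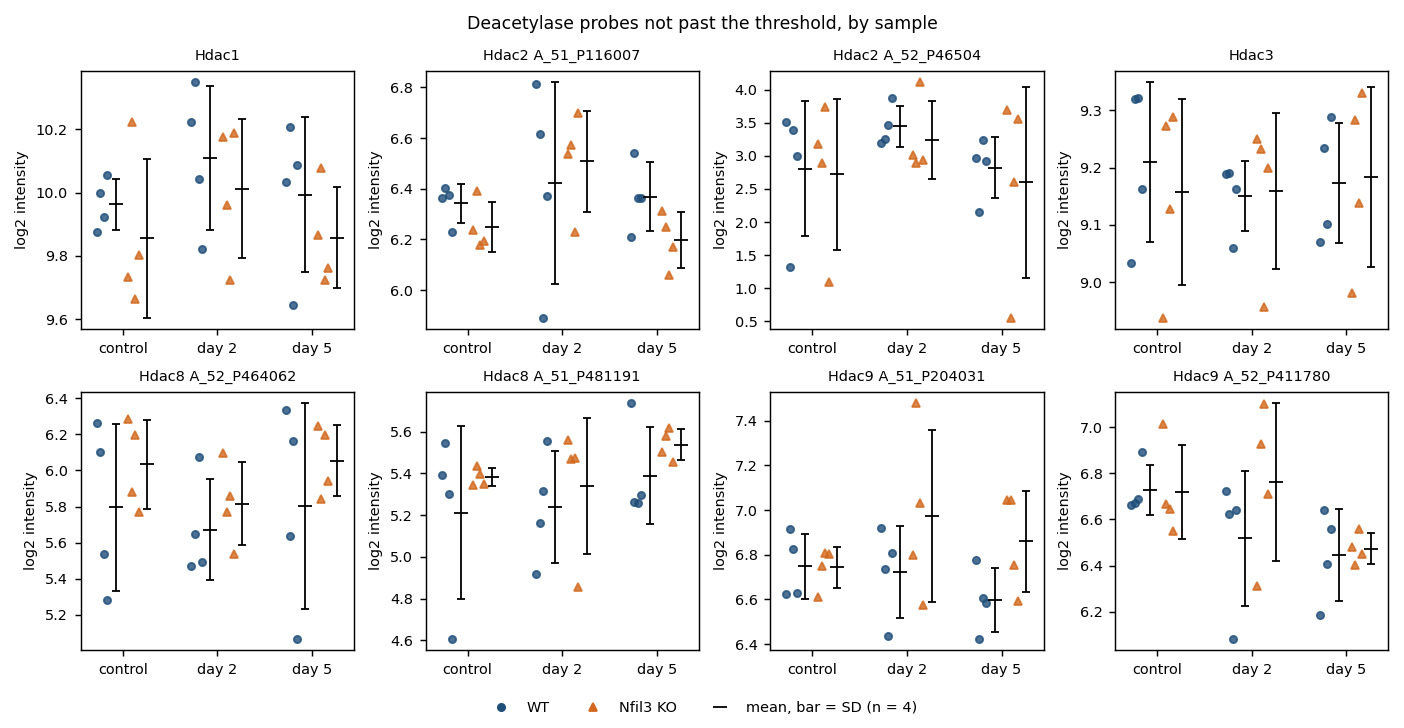
Log2 intensity of the 8 probes that did not pass the threshold, in each of the 24 samples, drawn as for the probes that passed. Control, day 2 and day 5 samples overlap in every panel; the *Hdac2* probe A_52_P46504 was well above background in 0 of 24 samples.

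The question of the study was whether loss of *Nfil3* alters injury-induced expression. No deacetylase was called between KO and WT in control, day 2 or day 5 ganglia (limma, 0 of 10 genes at each), against 0%, 0.0146% and 0.0146% of all genes, and of the 42 comparisons of a probe 0 reached 0.05 before adjustment. *Hdac7* A_51_P403234 in controls differed most, by 0.46 (-0.02 to 0.95, limma adjusted p = 1.00), and by 0.73 without WT control replicate 1, and the median size was 0.10. Among the 38 alternatives, an unadjusted p under 0.05 was reached for *Hdac7* in 4 (leaving out WT control replicate 1 or KO control replicate 4, or adding to the fit replicate number or whether both samples of an array were from the same time) and for *Hdac9* in 3 (without KO day 2 replicate 1 or 4 or KO day 5 replicate 4), and the smallest adjusted p among these was 0.704. For *Hdac11* KO minus WT was 0.02 in controls, 0.05 at day 2 and 0.06 at day 5, with intervals that reach from -0.32 to 0.41. For *Hdac4* it was 0.06 at all 3, with intervals that reach from -0.17 to 0.29. Among the genes not called in controls was *Nfil3* itself, with a mean of 8.65 in WT and 4.67 in KO. The share of 0% there does not show that no gene differed.

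The half-width of the 95% interval had a median of 0.33 over the 42 comparisons. Of these intervals 39 lay within 1 log2 unit of 0 on either side and 25 within 0.5. The 3 intervals that reached beyond 1 log2 unit from 0 belong to *Hdac2* probe A_52_P46504. The interaction of lesion and genotype was called for 0 of 10 members and for 0% of all genes, and 0 of the 14 probes had an unadjusted interaction F p under 0.05. *Nfil3*, whose mean level rose in WT and not in KO, was not called in it either. With limma and a further time course test, the paper reports a small set of genes whose lesion response differed between genotypes.

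**Figure D4:**
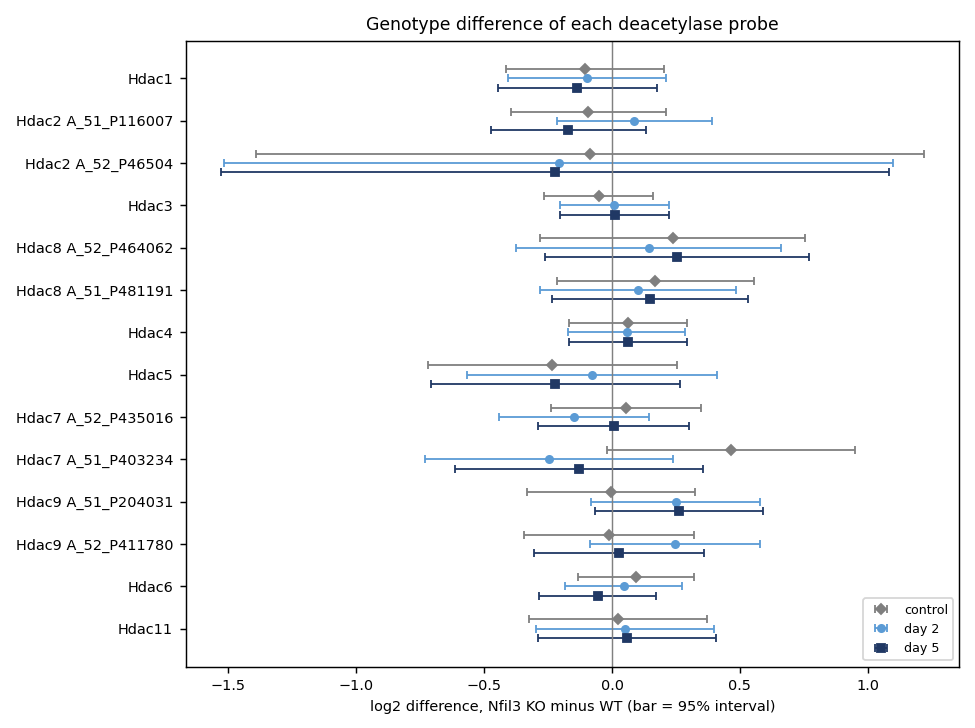
KO minus WT for each of the 14 probes in control, day 2 and day 5 ganglia on the log2 scale, with 95% intervals. All 42 intervals include 0, and the largest difference is 0.46 for *Hdac7* A_51_P403234 in controls.

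With the genotypes tested apart, *Hdac11* was called at day 2 in WT and in KO, against 12.5% and 13.7% of all genes. At day 5 *Hdac11*, *Hdac4*, *Hdac6* and *Hdac7* were called in WT and *Hdac11* and *Hdac4* in KO, against 15.5% and 14.2% of all genes. A weaker response in KO was not shown, since the interaction test called none of them.

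**Figure D5:**
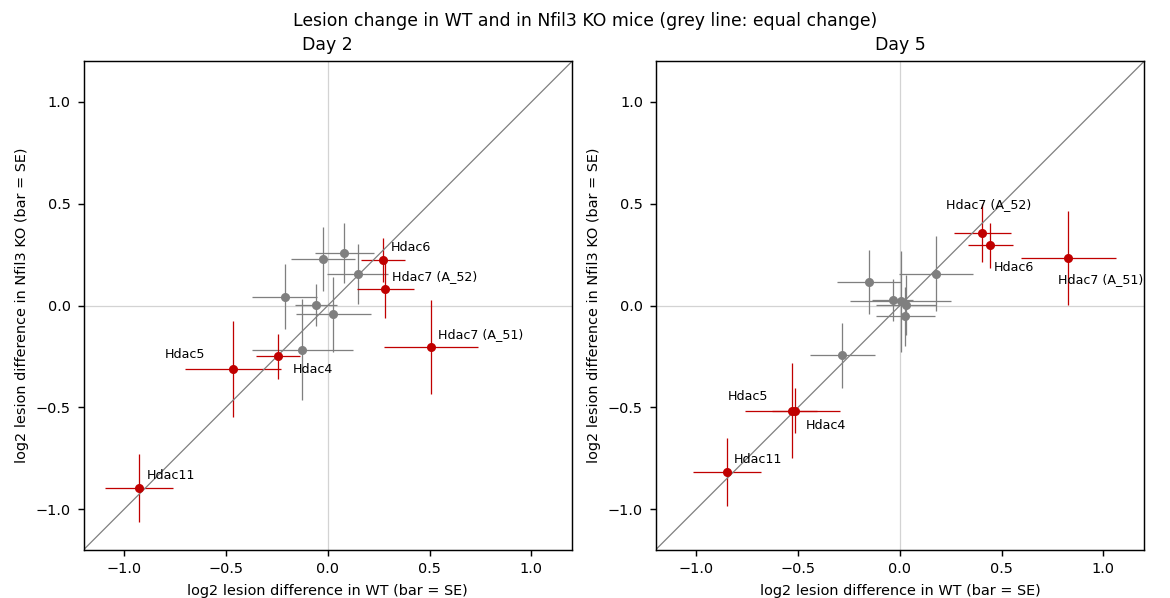
Lesion difference in KO mice against that in WT mice at day 2 and day 5, on the log2 scale, for the 13 probes other than *Hdac2* A_52_P46504, with bars of 1 SE in both directions and a line of equal change. *Hdac11* and *Hdac4* lie on or near the line at both times, and *Hdac7* A_51_P403234 lies farthest below it.

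Upstream sequence was read for 8 of the 10 members (not *Hdac1* and *Hdac3*), in 12 RefSeq promoter windows (GRCm38.p6) of 300 bases, 250 before the first transcribed base and 50 after. The 250 bases before the start are given for the 3 members that fell, with CG dinucleotides in capitals.
*Hdac11*: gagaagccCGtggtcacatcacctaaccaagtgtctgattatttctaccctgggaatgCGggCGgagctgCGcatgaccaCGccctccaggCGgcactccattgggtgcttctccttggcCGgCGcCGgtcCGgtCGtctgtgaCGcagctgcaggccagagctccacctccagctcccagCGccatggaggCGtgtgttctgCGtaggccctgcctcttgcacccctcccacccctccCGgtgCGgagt
*Hdac4*: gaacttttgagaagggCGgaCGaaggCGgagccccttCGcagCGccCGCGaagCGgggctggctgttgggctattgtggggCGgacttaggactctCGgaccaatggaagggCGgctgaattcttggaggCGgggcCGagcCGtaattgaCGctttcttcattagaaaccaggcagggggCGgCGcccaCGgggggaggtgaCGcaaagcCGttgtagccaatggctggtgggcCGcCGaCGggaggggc
*Hdac5*: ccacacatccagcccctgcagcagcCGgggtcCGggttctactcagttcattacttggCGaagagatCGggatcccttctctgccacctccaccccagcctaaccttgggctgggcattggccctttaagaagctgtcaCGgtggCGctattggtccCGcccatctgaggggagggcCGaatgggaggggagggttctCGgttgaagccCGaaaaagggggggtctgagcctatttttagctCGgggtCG
They lie at chr6:91156565-91156814 on the plus strand and at chr1:92180342-92180591 and chr11:102230173-102230422 on the minus strand. *Hdac4* held 23 CpGs, *Hdac11* 17 and *Hdac5* 12, where the median over 32851 promoters is 6 with quartiles of 2 and 16. These counts are over the 250 bases before the start. *Hdac6*, a member that rose, held 17 CpGs there as well, and the 4 *Hdac7* starts held 25, 21, 6 and 5. Among members not past the threshold, *Hdac2* held 27, *Hdac8* 6 and the *Hdac9* starts 2 and 0. A relation between CpG content and the lesion changes was not tested.

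NFIL3 binding sites (TTACGTAA or TTATGTAA on either strand) matched in 0 of the 12 windows of members, against 1.06% of all windows. The CRE, TGACGTCA, matched in 0 of them, against 1.79%. The AP-1 site, TGAGTCA on either strand, matched in 1 of them, against 5.2% of all windows. That match starts 23 bases into the transcript of 1 of 4 *Hdac7* starts and is shown in capitals, at chr15:97814823-97814852 on the minus strand.
*Hdac7*: agctgagcagcTGAGTCActcagtagctgg
A match is a string of letters and not a bound site, and the absence of a match refers only to these letters in these windows.

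Other genes of the acetylation machinery were read from lists chosen with earlier results of these data known. Of 32 corepressor subunits (SIN3, NuRD, CoREST and NCoR/SMRT complexes), 20 were called in the lesion F test, against 29.3% of all genes and 45.9% of genes with a probe well above background in every sample, to which all 32 belong. In the test at day 5, 8 were higher and 9 lower, against 16.7% and 24.4% of the latter genes. *Tbl1xr1*, of the NCoR complexes, was 0.52 ± 0.07 higher at day 2 and 0.34 ± 0.07 higher at day 5 (SE, adjusted p = 1.1e-05 and 8.9e-04), and *Gatad2a*, of NuRD, was 0.50 ± 0.07 and 0.43 ± 0.07 higher. *Suds3*, of the SIN3 complex, was at -0.43 ± 0.08 and -0.49 ± 0.08, and *Chd3*, a NuRD ATPase, at -0.48 ± 0.08 and -0.38 ± 0.08, all past the threshold. The subunits thus went both ways, with a median of -0.02 at day 2 and -0.09 at day 5. The catalytic *Hdac1*, *Hdac2* and *Hdac3* of these complexes were not called.

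Of 7 sirtuins, the NAD-dependent deacetylases, 3 were called in the F test, near the share of 29.3% of all genes or 45.9% of those well above background throughout. The mitochondrial *Sirt3* was at -0.46 ± 0.08 and -0.55 ± 0.08 (adjusted p = 1.9e-04 and 1.8e-05) and *Sirt5*, also mitochondrial, at -0.25 ± 0.06 and -0.28 ± 0.06. The nuclear *Sirt1* was at 0.23 ± 0.09 and 0.33 ± 0.09 and passed at day 5 (adjusted p = 0.011). Of 13 histone acetyltransferases 1 was called in the F test, *Hat1*, with -0.26 ± 0.07 at day 5 (adjusted p = 0.012). Of 4 BET family genes, readers of acetyl-lysine, 2 were called, *Brd2* with 0.26 ± 0.05 at day 2 and *Brd3* with 0.35 ± 0.09 at day 5.

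Of 25 partners and kinases of the class IIa enzymes 10 were called in the lesion F test over both times. This is near the share of 29.3% of all genes or 45.9% of those well above background throughout, to which 23 of the 25 belong. In the separate test at day 5, 3 were higher and 9 lower, against 16.7% and 24.4% of the latter genes. *Camk1*, a calcium/calmodulin-dependent kinase gene, was 2.26 ± 0.10 higher at day 2 and 2.41 ± 0.10 higher at day 5 (adjusted p = 1.9e-12 and 5.2e-13), the largest change among the genes of these lists. *Camk2b* was at -0.76 ± 0.11 and -0.82 ± 0.11, and *Prkd1*, which encodes protein kinase D1, at -0.35 ± 0.10 and -0.66 ± 0.10. Of 9 *Hdac6* substrates and partners 3 were called in the F test, against the same 29.3% and 45.9%. *Cttn*, the gene of the actin-binding substrate cortactin, was 0.98 ± 0.09 and 0.84 ± 0.09 higher (adjusted p = 2.1e-07 and 1.2e-06), and *Hsp90ab1*, a chaperone substrate, was at -0.19 ± 0.06 and -0.23 ± 0.06.

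Across the 24 samples the genes closest to *Hdac11* among 14484 probes well above background throughout were *Rnf208* (Pearson r = 0.976), *Caly* (0.975) and *Amigo3* (0.973). Those closest to *Hdac4* were *Zfhx3* (0.932), *Sorl1* (0.929) and *Prkar2b* (0.918), and those closest to *Hdac6* were *Limk2* (0.891), *Ap3b2* (0.869) and *R3hcc1* (0.869). With the group means removed r was 0.889 to 0.914 for the genes near *Hdac11*, 0.776 to 0.880 for *Hdac4* and 0.647 to 0.744 for *Hdac6*. These samples share arrays, slides and the lesion, so r is a description. *Amigo3*, a leucine-rich repeat adhesion gene, differed by -1.29 at day 2 and -1.13 at day 5, and *Sorl1*, which encodes a sorting receptor, by -0.86 and -1.40.

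The labels name the tissue as neurons, while whole ganglia were dissected, and markers of other cells were present. All 10 sensory neuron markers, all 10 markers of satellite glia and Schwann cells, all 10 macrophage markers and all 8 endothelial and fibroblast markers were well above background in every sample, as were 3 of 6 T cell markers and 2 of 6 markers of dividing cells. Of the neuron markers 9 were called in the lesion F test, against 29.3% of all genes and 45.9% of those well above background throughout. At day 5, 6 were lower and 1 higher, against 24.4% and 16.7% of the latter genes, and the median over the 10 markers was -0.60. *Nefh* and *Scn10a* were among the lower ones, and *Tubb3* was higher. The summed intensity of the neuron markers was 311457 to 353769 in controls, 281724 to 336093 at day 2 and 272731 to 347615 at day 5, ranges that overlap.

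All 10 macrophage markers were called and higher at day 5, with a median of 1.73, and their summed intensity was 1948 to 3343 in controls, 2617 to 5135 at day 2 and 6210 to 9862 at day 5. At day 2, 7 of the 10 were higher past the threshold, with a median of 0.67, and the sums overlapped those of the controls. Of the glial markers 6 were called, with 2 higher and 3 lower at day 5, of the endothelial and fibroblast markers 2, and of the markers of dividing cells 3. The share called in the lesion F test was 29.3% of all genes and 45.9% of those well above background throughout. Of the latter genes 16.7% were higher and 24.4% lower at day 5. Of the T cell markers 0 were called by limma, and 2 had an unadjusted F p under 0.05. The part of these shifts in the deacetylase changes was not tested.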

How the data were processed

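The authors labelled RNA of each sample with Cy3 or Cy5, hybridized 2 samples per array to 12 Agilent arrays on 3 slides, used the channels as single-color data, and extracted the scans with Agilent Feature Extraction 10.7.3.1. The deposited files hold, per spot and channel, foreground and background intensity without normalization, with flags, and processed signals that were used as an alternative only. From these intensities were computed the Edwards background correction (mean foreground, median background), log2 values and quantile normalization over the 24 channels. Outlier spots (0.106% to 0.835%) were left out, and spots of a probe were averaged. In R 4.3.3, limma 3.58.1 (with statmod 1.5.0, and the package data.table, version 1.17.8, to read the files) fitted all 24 samples with a separate mean for each of the 6 groups, followed by eBayes, and p values were adjusted over 41174 probes. Groups came from the sample titles. The label design calls the 4 samples of a group biological replicates.

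All members were named with all probes. From each list up to 2 genes per direction with the smallest lesion F p past the threshold were named, and for the 3 members with the smallest such p the 3 genes of highest correlation. *Scn10a* was chosen after its values were seen. One gene that the rule names is not reported here. The members, lists and tests were chosen with earlier results of these data known. Precision on these arrays is limited by their number. The scripts were tested on simulated data. The alternatives were the background correction (none, or normexp with an offset of 50), median foreground, the processed signals scaled to their 75th percentile, loess followed by Aquantile, outlier spots kept, a filter on dim probes, probes averaged per gene, dye, slide, replicate number, array or array partner in the model, an intensity trend and each sample left out in turn.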

Additional observations from a re-analysis of the deposited data

Results flagged for a closer look

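Over the 14 probes and 6 groups, 84 groups of 4 samples, 6 held a sample far from the other 3, by Dixon's test of its gap to the nearest one as a share of the group's range. Chance flags about 1 in 20 groups, so a few such samples are to be looked for among 84. *Hdac7* A_52_P435016 was at 8.11 in KO day 5 replicate 1 and at 8.51 to 8.59 in the others, a gap of 0.847 of the range. *Hdac9* A_52_P411780 was at 6.89 in WT control replicate 4 and at 6.66 to 6.69 in the others (0.881), and at 6.08 in WT day 2 replicate 3 and 6.62 to 6.72 in the others (0.840). *Hdac8* A_51_P481191 was at 5.73 in WT day 5 replicate 1 and at 5.26 to 5.30 in the others (0.924), and at 4.85 in KO day 2 replicate 4 and 5.47 to 5.56 in the others (0.872). *Hdac2* A_52_P46504 was at 4.11 in KO day 2 replicate 3 and at 2.89 to 3.02 in the others (0.894), with no sample well above background. No probe of a member passed the test of a different lesion change in KO and WT, and none had all samples of WT moving one way and all samples of KO the other.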

How the results depend on the processing

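No direction was reversed under the 14 processing alternatives or when any of the 24 samples was left out, among the differences given for members past the threshold, and all of these kept their call under the 14 processing alternatives. Between day 5 and day 2, 1 member (*Hdac4*) in place of 0 was called without background correction, with normexp, with the filter on dim probes, with the array partner as a block and with an intensity trend. Within KO, 4 members were called in place of 2 (*Hdac5* and *Hdac6* added) with processed signals and with slide as a block, and 3 (*Hdac6* added) without background correction and with normexp. *Hdac5* was added to the members called in the lesion F test under 7 of the 14, and to those lower at day 2 with processed signals and with slide as a block. Leaving out 1 sample, the members higher at day 2 ranged from 0 to 2 and those lower from 1 to 2, the members called between the times from 0 to 1, those called within KO from 2 to 3, those called in the lesion F test from 4 to 5 and those lower at day 5 from 2 to 3. In the lesion F test the gene added by leaving out 1 sample was *Hdac5* or, without WT day 2 replicate 3, *Hdac2*. KO against WT and the interaction stayed at 0 called under all of these alternatives. The cause of these shifts was not tested.

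Samples with the same replicate number were weakly alike. Over 60 pairs with the same number in different groups the correlation of deviations ran from -0.06 to 0.20, with 13 above 0.1. Its median was 0.07, against -0.03 for pairs with different numbers, and 11 of 24 samples correlated best with their own number. Replicates 1 and 2 of each group carried Cy3 and replicates 3 and 4 Cy5, so the number goes with the dye. With the replicate number as a block, 5 members in place of 4 were called in the lesion F test, 1 was higher and 2 were lower at day 2, 2 were higher and 3 lower at day 5, 0 differed between the times, 4 were called within WT and 2 within KO, and 0 for genotype or interaction. Each array carried 2 samples, and their correlation within arrays was estimated as 0.266.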

Other observations

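A pair of further probes is described as *Hdac9* in the array annotation but named by a transcript identifier, so they were not counted among the members. A_51_P255467 was well above background in all 24 samples, with levels of 5.28 to 6.12, and differed by 0.08 at day 2 and -0.04 at day 5 (lesion F adjusted p = 0.71, limma). A_52_P76792 was well above background in 0 of 24 samples, with levels of 1.92 to 4.77.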
